A study of Rattus norvegicus with 9 samples.

Results

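Mitotic spindle and proliferation marker genes were followed in INS-1E cells, a rat insulinoma line that secretes insulin and, unlike most beta cells of an adult islet, divides in culture. The 10 genes were taken by name from the 20645 genes of the expression table: Mki67, Top2a, Cenpf, Birc5, Kif11, Tpx2, Kif20a, Kif23, Prc1 and Anln. The 3 groups compared had 3 replicates each, harvested after 24 h. The BSA group received fatty-acid-free BSA, the PA group received palmitic acid (0.5 mM in the study's methods), and the PA + C3G group received the same fatty acid mixed with cyanidin-3-O-glucoside (C3G, 50 µM), an anthocyanin pigment, so that no group received C3G alone. The comparison of PA with BSA asks what the fatty acid did, and that of PA + C3G with PA asks what the pigment changed in its presence. The labels do not say whether replicates were separate cultures. The study describes its experiments in general as biological triplicates without saying how the sequenced cultures were set up, so p-values measure the spread between these samples, of which the source is not given.

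A dividing cell makes the products of these genes mainly between late S phase and the end of mitosis, and their transcripts are low in resting cells. Before division the DNA is untangled by a topoisomerase, the spindle is built by motor proteins, chromosomes are attached through kinetochores, and the cell is finally cut apart at the central spindle. Many of the promoters carry CCAAT boxes and a short element called the cell cycle genes homology region, through which the MuvB complex holds them silent in resting cells and, with B-Myb and FOXM1, turns them on before mitosis. RNA from whole cultures was measured, so fewer dividing cells and less RNA per dividing cell cannot be told apart.

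Promoters of 9 members were found in the RefSeq annotation of the rat genome build GRCr8, and Tpx2 had no entry. The windows searched ran from 250 bases before to 50 after the annotated gene start. The homology region, searched as TTTGAA on both strands, was present in 7 of the 9, against 18.3% of all 33469 rat promoters of the same length. The CCAAT box, searched as CCAAT on both strands, was present in 8 of the 9, against 37.5% of all promoters. Both motifs were present in 6 of the 9, against 7.41%. The following promoters belong to the 3 members that were higher in PA + C3G than in PA and the 2 with the lowest values in that comparison. They run from 220 bases before to 30 after the gene start, 5′ to 3′ on the strand of the gene, with motif matches on either strand in capitals (ATTGG and TTCAAA are the reverse complements).
Mki67, chr1:199952564-199952813, minus strand: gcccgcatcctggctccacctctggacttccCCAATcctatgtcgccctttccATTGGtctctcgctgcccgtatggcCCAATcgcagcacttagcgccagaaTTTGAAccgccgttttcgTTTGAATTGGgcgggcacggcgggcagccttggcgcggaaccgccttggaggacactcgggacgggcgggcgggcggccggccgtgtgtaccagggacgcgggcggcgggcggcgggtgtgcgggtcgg
Top2a, chr10:84473064-84473313, minus strand: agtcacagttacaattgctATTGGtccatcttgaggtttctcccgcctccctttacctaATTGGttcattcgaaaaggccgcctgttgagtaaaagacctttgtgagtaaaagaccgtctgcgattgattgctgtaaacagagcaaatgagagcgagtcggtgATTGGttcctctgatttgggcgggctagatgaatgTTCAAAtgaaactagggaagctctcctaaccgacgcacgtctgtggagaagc
Kif11, chr1:244536647-244536896, plus strand: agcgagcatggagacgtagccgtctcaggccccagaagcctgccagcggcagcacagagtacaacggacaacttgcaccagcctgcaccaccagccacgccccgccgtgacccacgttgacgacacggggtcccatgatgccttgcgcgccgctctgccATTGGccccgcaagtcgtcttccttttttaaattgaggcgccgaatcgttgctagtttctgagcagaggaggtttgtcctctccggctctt
Cenpf, chr13:103760857-103761106, minus strand: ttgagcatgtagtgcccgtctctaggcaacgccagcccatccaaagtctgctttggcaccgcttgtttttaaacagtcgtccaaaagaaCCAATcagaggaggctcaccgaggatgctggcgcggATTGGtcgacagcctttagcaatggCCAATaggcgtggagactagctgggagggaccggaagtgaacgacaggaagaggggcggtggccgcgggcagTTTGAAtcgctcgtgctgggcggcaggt
Kif20a, chr18:26504202-26504451, plus strand: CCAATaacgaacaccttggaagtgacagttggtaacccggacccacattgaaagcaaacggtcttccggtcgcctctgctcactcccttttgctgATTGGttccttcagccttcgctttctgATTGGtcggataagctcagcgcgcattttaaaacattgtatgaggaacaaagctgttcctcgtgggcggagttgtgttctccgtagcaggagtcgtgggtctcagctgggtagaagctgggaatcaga

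In Mki67 the second TTTGAA shares a base with the CCAAT match that follows it on the other strand. Neither Kif11 nor Kif20a held TTTGAA in this window, and a link between motifs and levels was not tested. A match is a match of letters only.

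**Figure D1:**
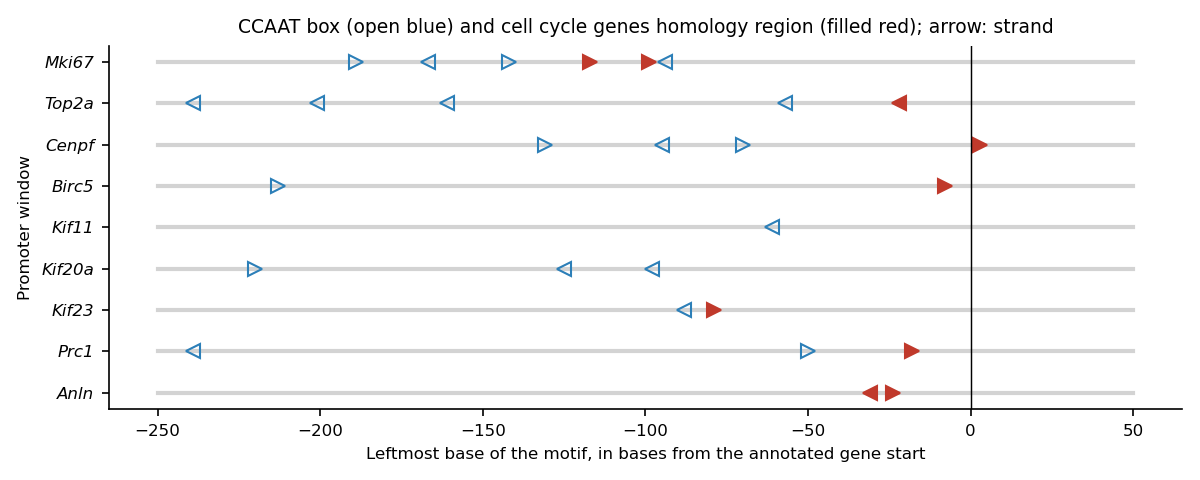
Positions of CCAAT boxes (open blue arrows) and of the cell cycle genes homology region (filled red arrows) in the 9 member promoters found, in bases from the annotated gene start, with arrows pointing along the strand of the match. Of the 9 windows, 8 hold a CCAAT box and 7 hold the homology region, and Kif11 and Kif20a lack the latter.

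Estimated counts, which the authors deposited per gene, summed to between 45559993 and 66730721 per library, and members had between 633 and 36112 of them in a library. Counts of 4 were 2.44 times as frequent as the average of counts of 3 and 5. The reason is not given in the sources used here, and counting error may be larger than these totals give. Levels are given in FPKM, fragments scaled to gene length and library. All 10 beta-cell markers of a set list were detected, with Ins1 the highest, and their summed level was 49167 to 49875 FPKM with BSA, 22314 to 22819 with PA and 46747 to 52334 with PA + C3G. Of 15 markers of other cell types, 8 were in the table. Their summed level lay between 10.3 and 32.4 FPKM with BSA, 3.31 and 7.78 with PA, and 5.64 and 23.5 with PA + C3G. Gcg had the highest mean of them in each group, though its lowest PA library was at 1.35 FPKM. Krt19 and Ptprc were listed at 0 in all BSA libraries, and Krt19 was at 0.029 to 0.177 FPKM with PA. The part of these shifts in the results was not tested. Changes were tested by edgeR's quasi-likelihood test over 12958 genes with a mean of at least 1 FPKM, called at a Benjamini-Hochberg adjusted p-value under 0.05. All 10 members passed the filter, with a mean above it in each group.

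PA lowered all 10 members. The median log2 change of the members in PA versus BSA was −1.78, from −2.31 for Top2a to −1.003 for Kif20a, and the median over all tested genes was 0.00. For comparison, 51.0% of all tested genes were called in this comparison, 25.2% lower and 25.8% higher with PA. Each member also changed by over 2-fold with an unadjusted p-value under 0.05, as 4.26% of tested genes did in this direction and 3.30% in the other. In each member all 3 PA libraries lay below all 3 BSA libraries, a pattern found in 31.8% of tested genes, and 28.0% showed the reverse. Fewer members were called in PA + C3G versus PA. Mki67, Top2a and Kif11 were higher in PA + C3G than in PA, Cenpf was lower, and 6 did not pass the test. In this comparison 21.2% of tested genes were called, 11.1% higher and 10.2% lower. The 1 member of 10 called lower is thus at the background share. Relative to BSA all 10 members were called lower in the PA + C3G group, where 36.9% of tested genes were called, 17.9% lower and 19.0% higher, and their median was −1.68. All 10 were over 2-fold lower, as were 2.77% of tested genes (1.86% were over 2-fold higher), and their libraries did not overlap those of BSA, as in 31.1% of tested genes in this direction and 19.2% in the other. No member differed by over 2-fold between PA + C3G and PA, as 0.432% of tested genes did downward and 0.702% upward. The libraries of Mki67, Top2a and Kif11 lay wholly above those of PA, as in 15.5% of tested genes. The comparisons share their PA and BSA libraries and are not independent.

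**Figure D2:**
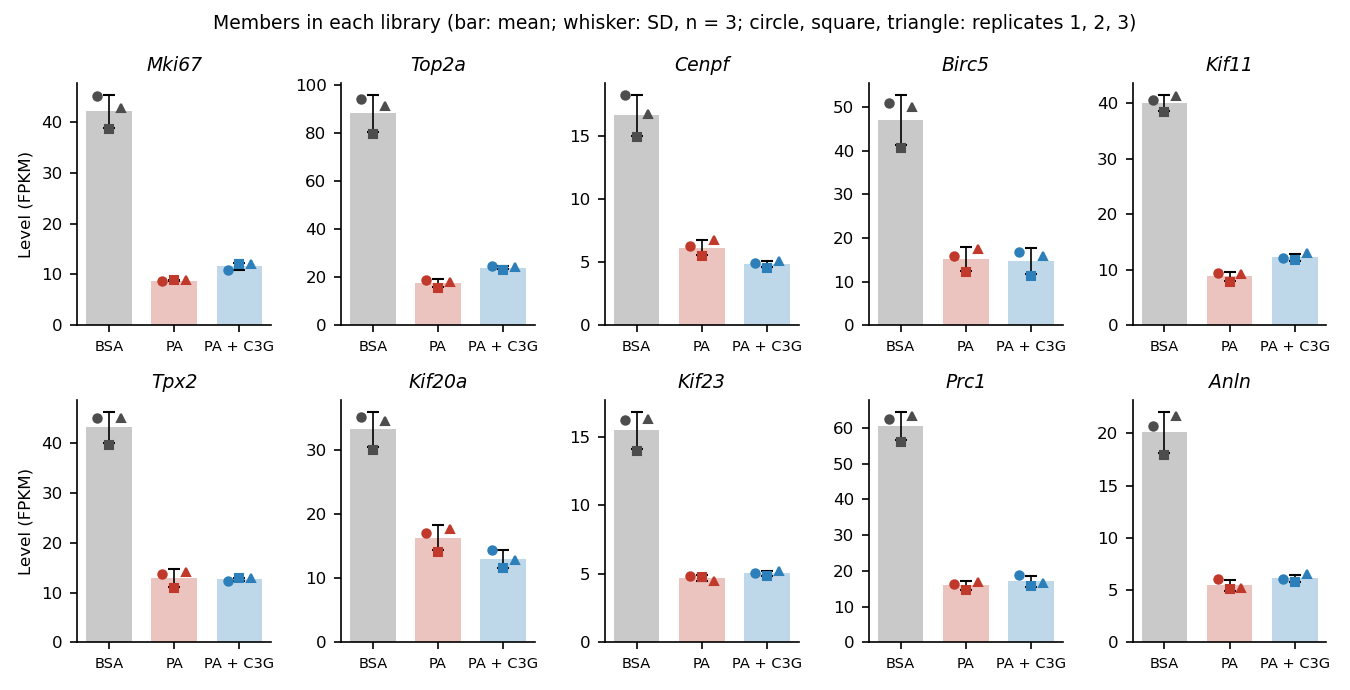
Level of each member in FPKM in the BSA, PA and PA + C3G groups, with bars for the mean, whiskers for the SD (n = 3) and a symbol for each replicate. In every panel the PA and PA + C3G libraries lie below the BSA libraries, and in Mki67, Top2a and Kif11 the PA + C3G libraries lie above the PA libraries.

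Mki67 (ENSRNOG00000028137, chromosome 1 from 207993895 to 208020454 in the table, whose build is not given in the sources used here) encodes Ki-67, the nuclear protein that coats mitotic chromosomes and serves as the usual marker of dividing cells. Its level in replicates 1, 2 and 3 was 45.1, 38.6 and 42.7 FPKM with BSA, 8.61, 8.85 and 8.84 with PA, and 10.8, 11.9 and 12.0 with PA + C3G. The 3 groups did not overlap. Mki67 changed by −2.24 on the log2 scale in PA versus BSA (standard error, SE, 0.06, adjusted p = 1.43e-08) and 0.44 in PA + C3G versus PA (SE 0.06, adjusted p = 0.00123).

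Top2a (ENSRNOG00000053047, chromosome 10 from 86901007 to 86932154) encodes DNA topoisomerase II alpha, which untangles sister chromatids. It had the highest level of the members in each group. The libraries were at 94.2, 79.5 and 91.1 FPKM with BSA, 18.9, 15.5 and 18.2 with PA, and 24.7, 23.1 and 24.1 with PA + C3G, again without overlap. Top2a fell by 2.31 on the log2 scale with PA (SE 0.08, adjusted p = 4.92e-08) and was higher by 0.49 with PA + C3G than with PA (SE 0.08, adjusted p = 0.00308).

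Of the spindle assembly genes, Kif11 was called in PA + C3G versus PA and Tpx2 was not. Kif11 (ENSRNOG00000056069, chromosome 1 from 256035866 to 256088299) encodes Eg5, the kinesin that pushes the spindle poles apart. Its libraries were at 40.6, 38.5 and 41.3 FPKM with BSA, 9.42, 7.85 and 9.16 with PA, and 12.0, 11.8 and 12.9 with PA + C3G. The 3 groups stood apart, with log2 changes of −2.16 in PA versus BSA (SE 0.07, adjusted p = 2.63e-08) and 0.51 in PA + C3G versus PA (SE 0.07, adjusted p = 0.00103). Tpx2 (ENSRNOG00000008165, chromosome 3 from 148327965 to 148370187) encodes the activator of Aurora A at the spindle. It was at 45.0, 39.7 and 45.1 FPKM with BSA, 13.8, 10.96 and 14.1 with PA, and 12.4, 12.9 and 12.9 with PA + C3G. It fell with PA (log2 change −1.72, SE 0.09, adjusted p = 3.70e-07), whereas its PA and PA + C3G libraries overlapped. The log2 difference between these groups was 0.01, with a 95% interval from −0.19 to 0.21 (adjusted p = 0.945), and its sign turned with the scaling, to −0.079 when all libraries were scaled to equal FPKM sums.

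At the kinetochore, Cenpf (ENSRNOG00000003388, chromosome 13 from 108132499 to 108178609), a large coiled-coil protein that gathers there in G2, was at 18.3, 15.0 and 16.7 FPKM with BSA, 6.24, 5.50 and 6.73 with PA, and 4.93, 4.56 and 5.06 with PA + C3G. The PA + C3G libraries were the lowest of all and did not overlap those of PA, as in 24.0% of tested genes. The log2 change was −1.41 in PA versus BSA (SE 0.09, adjusted p = 9.88e-07) and −0.31 in PA + C3G versus PA (SE 0.09, adjusted p = 0.0316). The latter call was lost when BSA replicate 3 (adjusted p = 0.0502), PA replicate 1 (adjusted p = 0.0797), PA replicate 3 (adjusted p = 0.114) or PA + C3G replicate 1 (adjusted p = 0.0652), 2 (adjusted p = 0.0896) or 3 (adjusted p = 0.0570) was left out.

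Birc5 (ENSRNOG00000050819, chromosome 10 from 106856097 to 106864413) encodes survivin, a subunit of the chromosomal passenger complex that guides chromosome attachment and cytokinesis. It was at 50.9, 40.6 and 50.1 FPKM with BSA, 15.9, 12.2 and 17.4 with PA, and 16.9, 11.3 and 16.0 with PA + C3G. PA lowered it by a log2 change of −1.61 (SE 0.18, adjusted p = 4.67e-05), and its PA and PA + C3G libraries overlapped. Their log2 difference was 0.00 with a 95% interval from −0.40 to 0.39, the widest of the members, and replicate 2 was the lowest library of each group.

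Among the genes of the central spindle and of cytokinesis, Kif20a (ENSRNOG00000024428, chromosome 18 from 27424328 to 27432814), a kinesin that carries the passenger complex to the midzone, was the member least lowered by PA. Its libraries were at 35.1, 30.1 and 34.5 FPKM with BSA, 17.1, 14.1 and 17.7 with PA, and 14.5, 11.6 and 12.9 with PA + C3G. The log2 change was −1.003 in PA versus BSA (SE 0.10, adjusted p = 3.23e-05). PA and PA + C3G libraries overlapped, since PA replicate 2 lay below PA + C3G replicate 1, and their log2 difference of −0.29 (95% interval from −0.52 to −0.06, adjusted p = 0.0791) did not pass the test. It passed when all libraries were scaled to equal FPKM sums (adjusted p = 0.0280), which made 3 members higher and 2 lower, and also with DESeq2 (adjusted p = 0.0193), without PA replicate 2 (adjusted p = 0.0324) and without PA + C3G replicate 1 (adjusted p = 0.0450). Kif20a shares 1910 of its 8487 bases with Cdc23 on the opposite strand, which was at 21.3 ± 0.779 FPKM with BSA, 21.8 ± 1.36 with PA and 19.7 ± 1.496 with PA + C3G (SD, n = 3). The library protocol marks strand, but whether the counting used it is not given in the sources used here, so reads of the pair may not be fully separated.

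Kif23 (ENSRNOG00000014080, chromosome 8 from 66866082 to 66893196), the motor of the centralspindlin complex, was at 16.3, 13.9 and 16.3 FPKM with BSA, 4.88, 4.77 and 4.48 with PA, and 5.09, 4.87 and 5.23 with PA + C3G. Prc1 (ENSRNOG00000013057, chromosome 1 from 142087208 to 142108746), which bundles the antiparallel microtubules of the midzone, was at 62.5, 56.1 and 63.2 FPKM with BSA, 16.4, 14.6 and 16.9 with PA, and 18.9, 15.9 and 16.5 with PA + C3G. Anln (ENSRNOG00000014343, chromosome 8 from 23337621 to 23390773), the anillin scaffold of the contractile ring, was at 20.7, 17.9 and 21.7 FPKM with BSA, 6.09, 5.12 and 5.24 with PA, and 6.07, 5.80 and 6.52 with PA + C3G. All 3 fell with PA, and in all 3 the PA and PA + C3G libraries overlapped. In PA versus BSA the log2 changes were −1.69 for Kif23 (SE 0.08, adjusted p = 1.77e-07), −1.90 for Prc1 (SE 0.08, adjusted p = 1.15e-07) and −1.85 for Anln (SE 0.09, adjusted p = 2.83e-07). In PA + C3G versus PA the log2 differences were 0.14 for Kif23 (95% interval from −0.03 to 0.31), 0.14 for Prc1 (from −0.04 to 0.32) and 0.20 for Anln (from −0.01 to 0.40), and their adjusted p-values lay between 0.163 and 0.254.

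**Figure D3:**
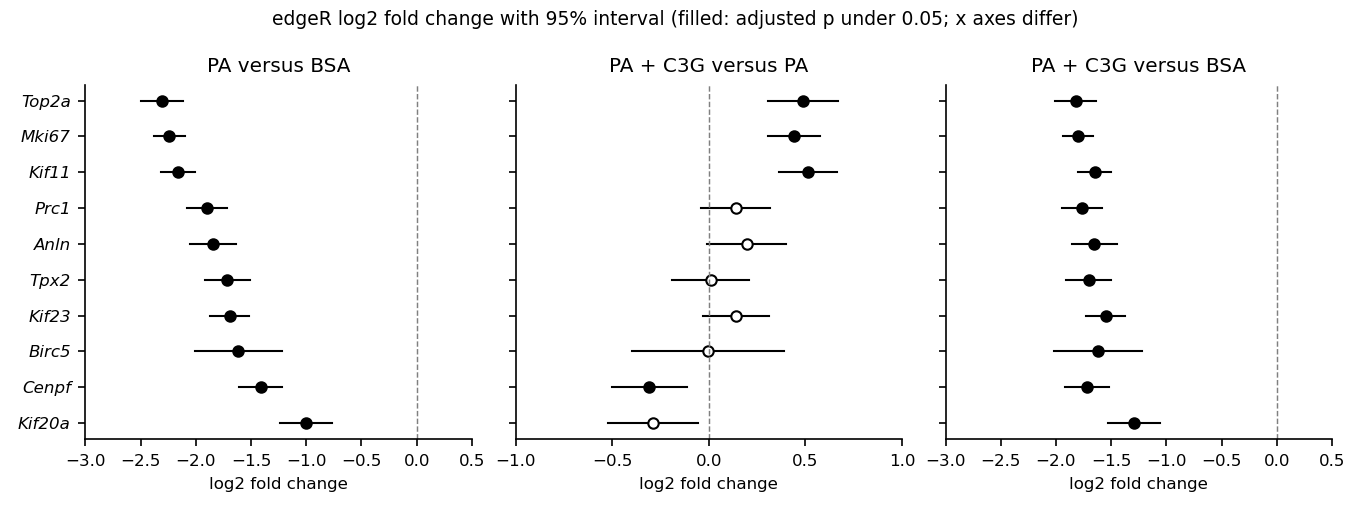
Log2 change of each member by edgeR with its 95% interval in the 3 comparisons, members ordered by the change in PA versus BSA and filled where the adjusted p-value was under 0.05. All members lie left of 0 in both comparisons with BSA, and between PA + C3G and PA they spread from −0.31 for Cenpf to 0.51 for Kif11.

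Expressed as a share of the BSA mean, member levels ranged from 19.8% for Top2a to 49.1% for Kif20a in the PA group and from 27.2% for Top2a to 39.1% for Kif20a in the PA + C3G group. The order of the members by FPKM changed with it. Top2a led in each group. With BSA it was followed by Prc1, neither overlapping the next gene, and then by Birc5, Tpx2, Mki67 and Kif11, whose neighbours overlapped. Kif20a came seventh with BSA, without overlap with Kif11 above it, and second with PA, where the leading 5 genes (Top2a, Kif20a, Prc1, Birc5 and Tpx2) overlapped from each to the next. Cenpf was ninth with BSA, eighth with PA and last with PA + C3G, where it overlapped Kif23.

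Ratios between members within a library do not depend on how libraries are scaled to each other. They were chosen after the levels were seen and are a description. The FPKM of Top2a divided by that of Cenpf was 5.16, 5.31 and 5.44 in the BSA libraries, 3.03, 2.81 and 2.70 in the PA libraries, and 5.00, 5.07 and 4.76 in the PA + C3G libraries. The PA libraries thus stood apart from both other groups, and the PA + C3G libraries were just below BSA. Kif11 divided by Cenpf was 2.22, 2.57 and 2.47 with BSA, 1.51, 1.43 and 1.36 with PA, and 2.44, 2.59 and 2.55 with PA + C3G, so that this ratio overlapped between BSA and PA + C3G. Against Kif20a, the ratio of Top2a was between 2.64 and 2.68 with BSA, 1.02 and 1.11 with PA, and 1.70 and 2.00 with PA + C3G, without overlap between the groups.

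**Figure D4:**
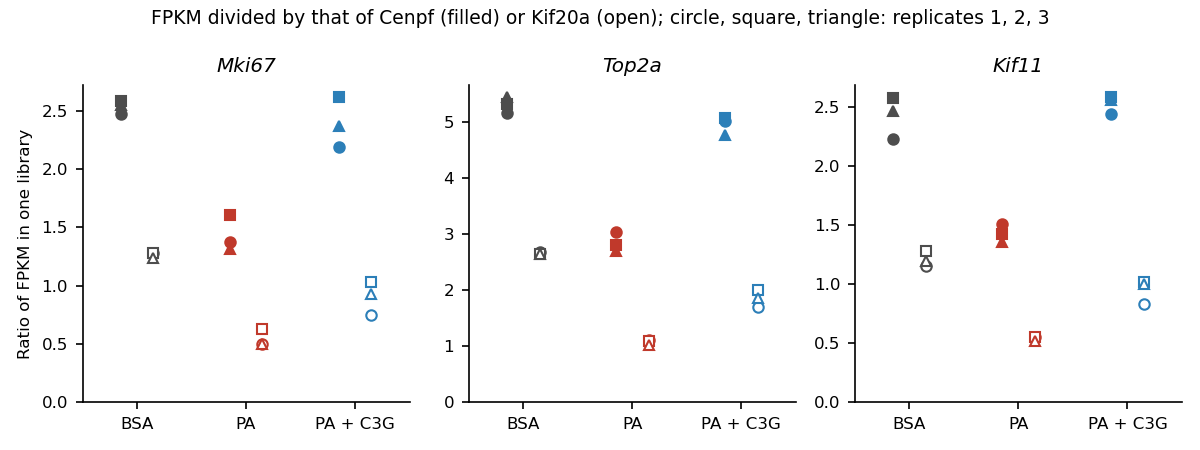
FPKM of Mki67, Top2a and Kif11 divided by the FPKM of Cenpf (filled symbols) or of Kif20a (open symbols) in the same library, with a symbol for each replicate of the BSA, PA and PA + C3G groups. The ratios are lowest in the PA libraries, and with PA + C3G those to Cenpf lie between 2.19 and 5.07, at or near the BSA values, while those to Kif20a lie below the BSA values.

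Over the 9 libraries the members followed each other, with Pearson's r of log2 CPM between 0.891 and 0.998 over their 45 pairs. These values were taken across the groups, and all members were lower with PA and with PA + C3G than with BSA. Correlation within groups was not tested. Replicate 2 had the lowest FPKM of its group in 10 members with BSA, 8 with PA and 8 with PA + C3G, while it was the lowest library in 39.0%, 38.8% and 34.2% of all tested genes. The genes outside the set whose pattern was most like the mean of the members were Tacc3 (Pearson's r = 0.9987), Kifc1 (0.9981), Arhgap19 (0.9968), Hmmr (0.9967) and Rad21 (0.9964), over 9 libraries. LOC100359600, Cit, Smc4 and Blmh were also among the 10 most alike. Of those 10, 5 were in the list of other mitotic genes described next. Rad21, a cohesin subunit, was at 139 FPKM with BSA, 71.0 with PA and 73.3 with PA + C3G on average.

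Other genes of mitosis were taken as a list of 54, of which Ccnb2 was not analysed here and the remaining 53 were tested. PA lowered all 53, where 25.2% of all tested genes were called lower. Their median log2 change was −1.71, with a range from −3.28 to −0.50. Foxm1, which turns on genes of G2 and mitosis, fell from 28.8 to 6.45 FPKM (log2 change −2.14, adjusted p = 5.41e-09). Ncaph, a condensin subunit, fell from 26.7 to 5.52 FPKM (−2.25, adjusted p = 9.27e-09), and Smc4, another condensin subunit, from 48.7 to 18.2 (−1.40, adjusted p = 3.21e-08). Pbk, a mitotic kinase, fell from 24.1 to 3.09 FPKM (−2.93, adjusted p = 2.63e-08), Ccna2, which encodes cyclin A2, from 41.6 to 10.3 (−1.99, adjusted p = 4.92e-08), and Kif22, a chromosome-bound kinesin, from 35.8 to 10.5 (−1.74, adjusted p = 4.92e-08).

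In PA + C3G versus PA, 19 of the 53 were called higher and 4 lower, beside 11.1% and 10.2% of all tested genes. The median log2 change of the list was 0.12. Scaling all libraries to equal FPKM sums gave 13 higher and 6 lower, and leaving out PA replicate 3 gave 12 higher and 2 lower. The smallest adjusted p-values belonged to genes that were higher, Foxm1 (log2 change 0.58, adjusted p = 4.98e-05), Ncaph (0.61, adjusted p = 0.000168), Pbk (0.94, adjusted p = 0.000232) and Mybl2 (1.10, adjusted p = 0.000364), which encodes B-Myb. Lower with C3G were Aurkb, the kinase of the passenger complex (−0.48, adjusted p = 0.00194), Ccnb1, which encodes cyclin B1 (−0.32, adjusted p = 0.0162), the spindle pole gene Aspm (−0.32, adjusted p = 0.0435), and Knstrn, a kinetochore adaptor (−0.30, adjusted p = 0.0462). The call for Aurkb held in all 19 alternatives. That for Ccnb1 was lost without PA replicate 1 (adjusted p = 0.0509). The calls for Aspm and Knstrn were each lost in 9 alternatives, with adjusted p-values up to 0.127 and 0.154. Both were lost without BSA replicate 1 or 3, PA replicate 1 or 3, or PA + C3G replicate 1 or 2. Aspm was also lost without PA replicate 2 and Knstrn without PA + C3G replicate 3. Both were lost with only the compared groups, Aspm also with limma on log2(FPKM + 1) and Knstrn also with no filter. Without PA replicate 1 the list had 17 genes higher and 1 lower. All 53 were called lower in PA + C3G than in BSA, as were 17.9% of all tested genes, and their median was −1.57.

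Subunits of the same complex were also compared, a choice made after their values were seen, so the counts are a description only. In PA + C3G versus PA 11.1% of all tested genes were called higher and 10.2% lower. In the passenger complex, Incenp (0.19, adjusted p = 0.0398) and Cdca8 (0.30, adjusted p = 0.0178) were higher in PA + C3G than in PA, whereas Aurkb was lower and Birc5 did not pass the test. With PA, Aurkb had fallen by 0.60 on the log2 scale, less than Incenp (−1.54), Cdca8 (−1.65) and Birc5 (−1.61). All 4 subunits of the NDC80 complex, which couples kinetochores to microtubules, were higher with C3G, with log2 changes of 1.10 for Spc24 (adjusted p = 0.00294), 1.001 for Spc25 (adjusted p = 0.00542), 0.45 for Ndc80 (adjusted p = 0.0146) and 0.27 for Nuf2 (adjusted p = 0.0272).

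A list of 14 genes, all tested, held genes of the complexes that act at homology region promoters and, outside these complexes, Foxo3. With PA 8 of the 14 were called lower and none higher, beside 25.2% and 25.8% of all tested genes. The median log2 change of the list was −0.37. Mybl2 fell from 23.8 to 2.39 FPKM (log2 change −3.28, adjusted p = 5.76e-08), the largest fall of the list, followed by Foxm1. Both are in the mitotic list too. Lin9, a core subunit of MuvB, fell by 1.07 on the log2 scale (adjusted p = 5.29e-05), Rbl1, which encodes p107, by 0.84 (adjusted p = 2.61e-05), and Rbbp4, a histone-binding subunit, by 0.41 (adjusted p = 2.84e-05). Lin54, E2f5 and Tfdp1 were the other genes called lower. In PA + C3G versus PA, Mybl2 and Foxm1 were the 2 genes of this list called higher and none was called lower. With 11.1% of all tested genes called higher in this comparison, 2 of 14 is near the background.

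A list of replication licensing genes, which prepare origins for S phase, gave a different balance with C3G. It also held Cdc45, Gins1 to Gins4, Pcna and Gmnn, so its counts are not of licensing factors alone. Of 22 in the list, 21 were tested, since Orc1 was below the filter. PA, with which 25.2% of all tested genes were called lower and 25.8% higher, lowered 18 and raised 1. The gene raised was Orc3 (log2 change 0.22, adjusted p = 0.0101), a subunit of the origin recognition complex. The median of the list was −1.38. In PA + C3G versus PA, where 11.1% of all tested genes were called higher and 10.2% lower, 15 were higher and 1 was lower. The lower one was again Orc3 (−0.19, adjusted p = 0.0438). The median of the list was 0.56 where that of the members was 0.14. Scaling all libraries to equal FPKM sums gave 15 higher and 3 lower. The lower call for Orc3 was lost in 11 of 19 alternatives, with an adjusted p of up to 0.130, among them each fit without a library except that without PA + C3G replicate 1. Mcm5, a subunit of the MCM helicase that opens the DNA, had the lowest adjusted p-value of the list in both comparisons and went from 27.4 FPKM with BSA to 6.76 with PA (log2 change −1.99, adjusted p = 5.46e-09) and 12.8 with PA + C3G (0.96 over PA, adjusted p = 1.12e-05). Cdc6 and Cdc45 had means under 1 FPKM with PA and passed the filter through the other groups. Cdc6, which loads the helicase, went from 3.86 FPKM with BSA to 0.567 with PA and 1.68 with PA + C3G, a log2 change of 1.60 over PA (adjusted p = 0.000180). For the other helicase subunits, the log2 change over PA was 0.36 for Mcm2 (adjusted p = 0.00200), 0.28 for Mcm4 (adjusted p = 0.00604), 0.76 for Mcm3 (adjusted p = 0.000223), 0.57 for Mcm6 (adjusted p = 3.22e-05) and 0.22 for Mcm7 (adjusted p = 0.00562). Cdc45, which activates the helicase, was higher by 0.97 (adjusted p = 0.000660). With PA, Mcm3 had fallen by 1.70, Mcm6 by 1.35, Mcm7 by 0.94, Cdc45 by 2.35 and Cdc6 by 2.73 on the log2 scale. Mcm2 and Mcm4 were added after their values were seen, to give all MCM subunits. The difference between the lists was not tested.

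**Figure D5:**
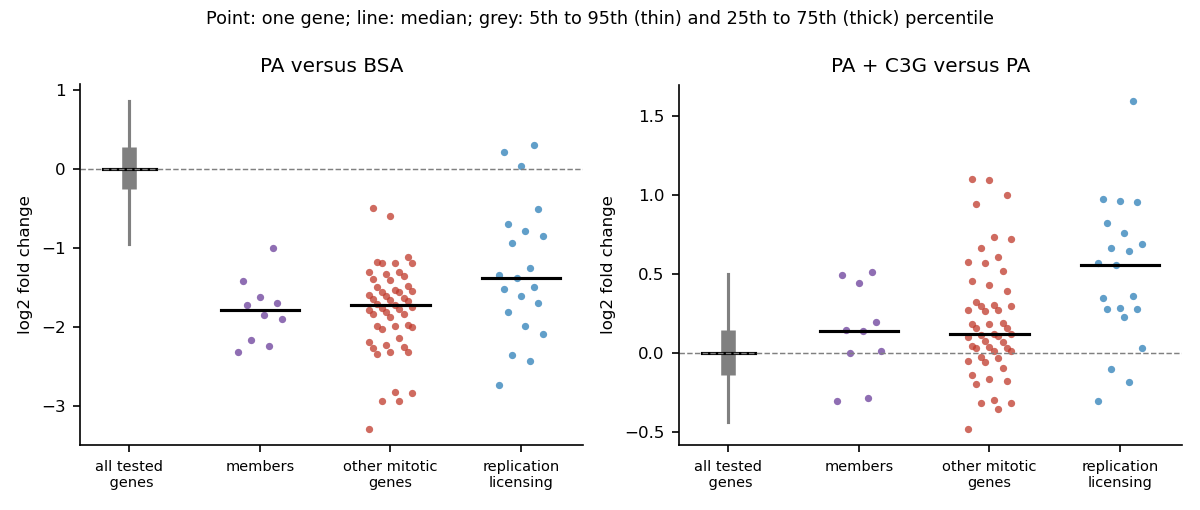
Log2 change in PA versus BSA (left) and in PA + C3G versus PA (right) for all tested genes (5th to 95th and 25th to 75th percentile), the 10 members, 53 other mitotic genes and 21 genes of the replication licensing list, with 1 point per gene and a line at the median. The medians in PA versus BSA are −1.78, −1.71 and −1.38 for the 3 lists, and in PA + C3G versus PA they are 0.14, 0.12 and 0.56.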

How the data were processed

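Polyadenylated RNA of 9 INS-1E libraries was sequenced in paired-end mode. The submitters' processing notes name cutadapt 1.9, HISAT2 2.0.4 and StringTie 1.3.4d. The genome build is not given in the sources used here. The authors deposited estimated counts per gene, not normalized, and FPKM, scaled by the authors to gene length and library. Both are whole-gene values for 20645 Ensembl genes in 1 table.

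Counts were tested by the quasi-likelihood method of edgeR 4.0.16 (R 4.3.3, TMM factors, 9 libraries, group as the only term) over 12958 genes whose mean FPKM reached 1, with Benjamini-Hochberg adjustment. The procedure was tested on simulated data, with 40 genes changed in PA versus BSA at each size. It called 90% of genes at a true log2 change of −2, 72.5% at −1 and 82.5% at 1. At −0.5 it called 37.5% and at 0.5 it called 47.5%, so a gene not called may still differ by that much. Of all calls 5.71% were false.

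The members and gene lists were chosen with earlier results of these data known. Named from the mitotic and licensing lists were the 6 genes with the lowest adjusted p-value in PA versus BSA, the 4 in PA + C3G versus PA, and genes called against the majority of their list. From the other lists, genes called in PA versus BSA were named, with values for up to 5. Likeness was Pearson's r over log2(CPM + 0.1) after TMM scaling, and 1 of the 10 genes it found is not reported here. As alternatives, DESeq2 1.42.0 was run, and the fit was repeated with median-ratio size factors, equal FPKM sums, other filters, only the compared groups, a replicate block, limma 3.58.1 on log2(FPKM + 1) and log2(FPKM + 0.1), counts divided by 4, and leaving out each library.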

Additional observations from a re-analysis of the deposited data

How the results depend on the processing

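All 10 members stayed lower in PA than in BSA and in PA + C3G than in BSA under each of the 19 alternatives. Between 3 and 5 members were called in PA + C3G versus PA, and Mki67, Top2a and Kif11 were called higher in each alternative. The call for Cenpf was lost in 6 fits that leave out a library. Kif20a was called lower in 5 alternatives. Leaving out each library in turn gave 1718 to 2838 genes for PA + C3G versus PA, the lowest without PA replicate 3, and 14 to 24 genes of the mitotic list. Tpx2 in PA + C3G versus PA turned to −0.079 with equal FPKM sums, −0.017 with limma on log2(FPKM + 1) and −0.017 on log2(FPKM + 0.1), and leaving out a library gave −0.093 to 0.071. Birc5 lay between −0.14 and 0.15 without a library. The cause was not tested. Equal FPKM sums turned the balance over all tested genes in PA + C3G versus PA from 1436 higher and 1316 lower to 775 and 2525, and in PA + C3G versus BSA from 2462 and 2321 to 1891 and 3038. With the replicate number as a block, 6843 genes were called in PA versus BSA, 3118 in PA + C3G versus PA and 5058 in PA + C3G versus BSA. The replicate block called 10, 5 and 10 members, the added one being Kif20a in PA + C3G versus PA (adjusted p = 0.00546). Deviations of same-numbered replicates from their group means correlated between −0.087 and 0.098 across all tested genes, a figure that does not describe the members alone. In the members, replicate 2 was the lowest library of its group in 10 with BSA, 8 with PA and 8 with PA + C3G. The labels give no pairing, so the main test has no block, and whether replicates pair for the members was not tested. Of the 9 libraries, 6 correlated best with their own number, a hint from the data and not from the design. With 3 replicates per group, Birc5, Tpx2, Kif23, Prc1 and Anln have intervals in PA + C3G versus PA that include 0.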

Other observations

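Inhibitors of the cell cycle and genes linked to resting cells were taken as a list of 15, of which 13 were in the table and 10 were tested. Their median log2 change in PA versus BSA was −0.16, with 5 called lower and 1 higher. Over all tested genes 51.0% were called in this comparison, so that 6 of 10 in total is near the background. By direction, 25.2% of all tested genes were called lower and 25.8% higher, beside 5 and 1 of the 10. The gene called higher was Cdkn1b, which encodes p27 (log2 change 0.22, adjusted p = 0.000656), at 102 FPKM with BSA, 116 with PA and 98.6 with PA + C3G. Its level was lower again in PA + C3G than in PA (−0.20, adjusted p = 0.00430). Cdkn2c, which encodes p18, fell with PA from 27.6 to 11.4 FPKM (−1.26, adjusted p = 7.53e-05), and Cdkn1a, which encodes p21, from 18.8 to 13.1 (−0.50, adjusted p = 0.00957). Ccng2 and Btg2 also fell with PA, by 0.41 (adjusted p = 0.00962) and 0.15 (adjusted p = 0.0295) on the log2 scale, and Rbl1 is given with the MuvB genes. In PA + C3G versus PA, where 21.2% of all tested genes were called, 2 genes of the list were higher, Btg1 (0.27, adjusted p = 0.0236) and Btg2 (0.22, adjusted p = 0.0129), and 2 were lower, Cdkn1b and Gadd45a (−0.25, adjusted p = 0.0418). Cdkn1c, Cdkn2a and Rb1 were listed at or near 0 and were not tested.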
